A study of Mus musculus with 20 samples.

Results

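Lhfpl3, Matn4, Gpr17, C1ql1, Neu4, Tmem255b, Brinp3 and Dmrtb1 are 8 of the 45705 genes in the expression table, grouped as membrane and secreted genes of oligodendrocyte precursor cells (OPCs). They were picked by name, chosen by their high RPKM in GRP3 and PFMP relative to neural stem cells (NSC). Those levels are therefore described below without a test. RPKM divides the reads of a gene by its length and by the reads of the library. The lengths used are not given and the RNA was amplified, so levels are set side by side between genes only as a description. All 8 reached an RPKM of 1 in at least 4 of the 20 libraries and were among the 27614 genes tested.

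The 20 libraries came from Swiss Webster mouse pups of both sexes at postnatal day 5, with no engineered allele named. The periventricular zone was dissected, the pups of a litter were pooled, and living cells were sorted on CD140a and NG2 and then on CD133 and LeX (CD15). This gave NSC and 4 neural progenitor populations, called BNAP/GRP1, GRP2/MP3, GRP3 and PFMP. GRP stands for glial-restricted progenitor, BNAP for a bipotential progenitor of neurons and astrocytes, MP for multipotential progenitor, and PFMP for the multipotential progenitor that responds to PDGF and FGF. Each population was taken once in each of 4 batches (n = 4), no animal was treated, and the polyA RNA was amplified before sequencing. In such bulk samples fewer cells of a type and less RNA per cell cannot be told apart.

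OPCs are the proliferating glial cells that give rise to oligodendrocytes. They carry the PDGF receptor (CD140a, from Pdgfra) and the NG2 proteoglycan (from Cspg4) on their surface and express the transcription factors Olig1, Olig2 and Sox10. They read the tissue through surface receptors and add proteins to the matrix around them, and several of these proteins are lost again as the cells turn into myelinating oligodendrocytes.

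The label membrane and secreted was checked against what is known of the products, since protein location was not measured. Lhfpl3 encodes a membrane protein of the tetraspan type, Gpr17 a G protein-coupled receptor that marks the step between OPC and premyelinating oligodendrocyte, and Tmem255b a transmembrane protein of little-known function. Matn4 (matrilin 4) encodes a secreted adaptor of the extracellular matrix, C1ql1 a secreted protein with a C1q domain that binds an adhesion receptor, and Brinp3 a secretory-pathway protein of the BRINP family. Neu4 encodes a sialidase, an enzyme of internal membranes that removes sialic acid. Dmrtb1 encodes a transcription factor of the DM-domain family, known mostly from germ cells, and so is neither a membrane nor a secreted gene.

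In GRCm38 with the GENCODE vM21 annotation, Lhfpl3 (ENSMUSG00000106379) lies at chr5:22746059-23275597 on the plus strand and Matn4 (ENSMUSG00000016995) at chr2:164389393-164405160 on the minus strand. Gpr17 (ENSMUSG00000052229) lies at chr18:31942997-31949636 and C1ql1 (ENSMUSG00000045532) at chr11:102939264-102946688, both on the minus strand. Neu4 (ENSMUSG00000034000, chr1:94020451-94028334) and Brinp3 (ENSMUSG00000035131, chr1:146494760-146902472) are both on the plus strand of chromosome 1. Tmem255b (ENSMUSG00000038457) is at chr8:13435189-13468473 on the plus strand and Dmrtb1 (ENSMUSG00000028610) at chr4:107676290-107684230 on the minus strand. The genes are thus spread over 7 chromosomes.

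Matn4, Gpr17 and Tmem255b each overlap a protein-coding gene on the other strand, and whether strand was used in counting is not given in the sources used here. Tmem255b shares 34 of its 1581 exonic bases with Gas6, whose mean RPKM ran the opposite way, from 123 in NSC to 26.7 in GRP3 and 23.8 in PFMP (Pearson r = -0.48 over the 20 libraries, as a description). Gpr17 shares 188 of 5195 exonic bases with Lims2, which averaged 0.721 RPKM in NSC, 16.7 in GRP3 and 39.4 in PFMP (r = 0.85). Matn4 shares 149 of 5174 with Rbpjl, which averaged 0.404 RPKM in NSC, 1.29 in GRP3 and 2.12 in PFMP (r = 0.73). The part of reads from the other strand in these values was not tested.

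Promoter windows of 250 bases before and 50 after the start site were found in RefSeq (GRCm38.p6) for 6 of the 8 genes, not for Gpr17 and C1ql1. The 10 windows of these 6 genes were searched on both strands for the letters ACAAAG and ACAATG (the core bound by SOX factors such as Sox10) and CAGCTG and CATATG (E-boxes, the letters bound by OLIG factors and other bHLH proteins). These 4 searches do not overlap in their letters, and of 32851 windows of all genes 18.7% held ACAAAG, 12.6% ACAATG, 16.3% CAGCTG and 3.91% CATATG. In the members CAGCTG occurred in 3 windows, once each in 1 window of Matn4 and 1 of Dmrtb1, and at 2 places in that of Lhfpl3, which begin 158 and 149 bases before the start site. The other letters were not found in these windows. The 250 bases before the start are shown for Lhfpl3 (chr5:22745804-22746053, plus strand), the gene of the highest level, where an exon of the lincRNA A930003O13Rik also lies, and for the upstream start of Dmrtb1 (chr4:107684231-107684480, minus strand), as an example with no match, 5′ to 3′ with the matches in capitals.
Lhfpl3: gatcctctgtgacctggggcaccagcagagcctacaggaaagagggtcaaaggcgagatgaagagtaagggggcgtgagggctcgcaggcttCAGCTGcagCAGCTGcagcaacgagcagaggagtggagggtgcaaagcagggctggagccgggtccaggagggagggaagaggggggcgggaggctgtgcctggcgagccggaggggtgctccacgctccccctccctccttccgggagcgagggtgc
Dmrtb1: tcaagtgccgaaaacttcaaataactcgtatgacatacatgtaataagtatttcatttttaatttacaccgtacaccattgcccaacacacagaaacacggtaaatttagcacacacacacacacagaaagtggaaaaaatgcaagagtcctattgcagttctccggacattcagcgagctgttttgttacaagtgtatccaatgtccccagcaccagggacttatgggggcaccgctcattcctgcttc

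The libraries of batch 3 stood apart before any gene was compared. In all 5 populations of batch 3, 5 lung genes (such as Sftpc) summed to between 1412 and 1596 RPKM, against 0 to 50.5 in the other 15 libraries. The 5 erythroid genes summed to between 228440 and 252653 RPKM, against 10.2 to 26514, and the 6 genes of astroglia and NSC to between 149 and 254, against 320 to 14804. The 21 genes of the OPC list summed to 89.8 and 102 RPKM in GRP3 and PFMP of batch 3, and to 68.2 to 84.7 in its other populations. The relative depth of the batch 3 libraries (0.733 to 1.41, with BNAP/GRP1 of batch 1 set to 1) was not low. In batch 4, by contrast, 82.8% to 86.8% of all genes were above 0 in every population but PFMP, against 44.0% to 70.0% in the other libraries, and BNAP/GRP1 of batch 4 was the shallowest library (relative depth 0.0395, median RPKM of all genes 8.30). Pdgfra, the gene of the sort antigen CD140a, had 3.41 and 3.84 RPKM in GRP3 and PFMP of batch 3, against 96.9 to 803 in the other batches. The libraries labelled GRP3 and PFMP of batch 3 thus held far less of the OPC genes than those of the other batches. Within batch 3 they still ranked above the other populations, with 2.14 and 2.24 RPKM of the 8 genes summed, against 0.00272 to 0.0953. The 5 ependymal genes (such as Foxj1) summed to 1106 RPKM in NSC of batch 3, against 3.72 to 5.79 in its other libraries. A batch 3 value below is that of the library so labelled. Means and tests are given with and without batch 3, and the part of these differences in each result was not tested.

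**Figure D1:**
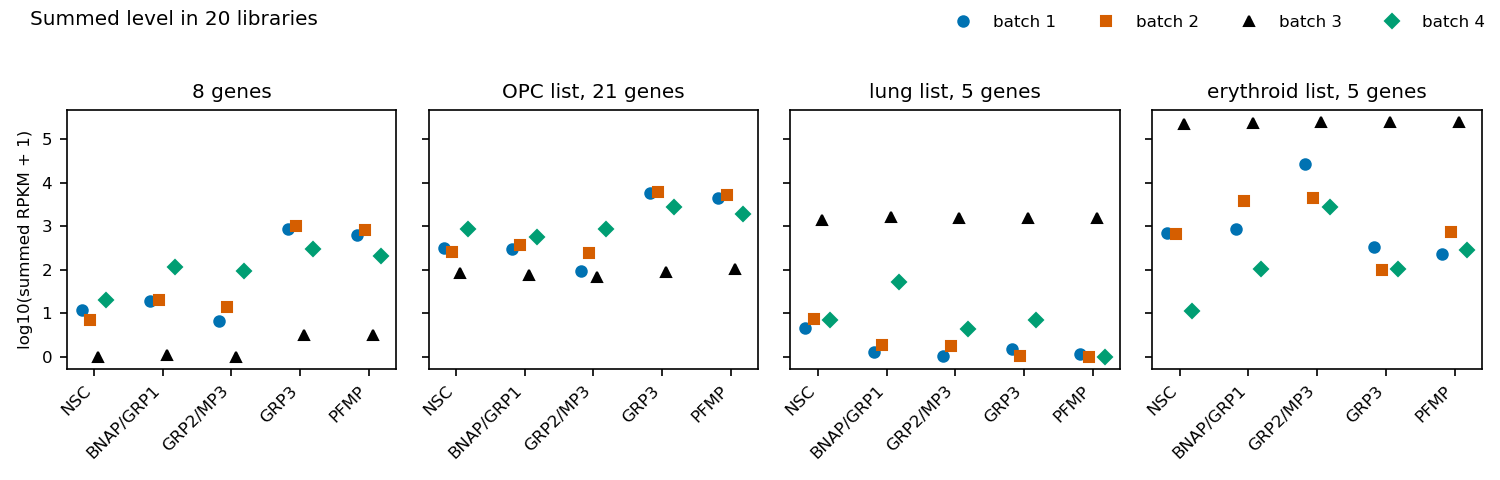
Summed RPKM of the 8 genes, of 21 OPC genes, of 5 lung genes and of 5 erythroid genes in each of the 20 libraries, drawn as log10(sum + 1), with a marker for each batch. The batch 3 libraries are lowest for the 8 genes in every population (0.00272 to 2.24 RPKM) and highest for the lung and erythroid genes, while GRP3 and PFMP of the other batches are highest for the 8 genes (210 to 1004 RPKM).

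Among the membrane genes, Lhfpl3 had the highest levels. In GRP3 its RPKM was 307, 517, 1.17 and 134 in batches 1 to 4 (240 ± 223, SD, n = 4), and in PFMP it was 328, 101, 0.808 and 59.0 (122 ± 143). Outside batch 3 these 6 libraries lay above all 9 libraries of NSC, BNAP/GRP1 and GRP2/MP3, whose highest values were 21 and 21.6 in batch 4 of BNAP/GRP1 and GRP2/MP3. NSC had 4.05, 1.45, 0 and 2.64 RPKM. The difference from NSC, as a description on the log2(RPKM + 1) scale, was 5.0 ± 1.57 (standard error) in GRP3 and 4.08 ± 1.57 in PFMP.

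Gpr17, the receptor, had 111, 142, 0.0392 and 35.0 RPKM in GRP3 and 94.8, 66.9, 0.201 and 25.7 in PFMP. In GRP2/MP3 it had 0.665, 3.04, 0.00272 and 25.4 RPKM, so that its batch 4 library came close to PFMP of the same batch. The NSC libraries had 2.56, 0.196, 0 and 1.64 RPKM. Tmem255b was at 92.4, 62.8, 0 and 22.0 RPKM in GRP3 and at 18.4, 150, 0.326 and 35.7 in PFMP, and at no more than 0.821 in NSC. It was highest in batch 1 for GRP3 and in batch 2 for PFMP, and it was the member with the lowest NSC mean (0.278 ± 0.374 RPKM, SD, n = 4).

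Of the secreted genes, C1ql1 reached 188, 87.4, 0.435 and 34.5 RPKM in GRP3 and 72.3, 253, 0.185 and 12.1 in PFMP. BNAP/GRP1 of batch 4 had 19.9 RPKM of C1ql1, above the 12.1 of PFMP in that batch, so here the groups overlapped in RPKM. That BNAP/GRP1 library was the shallowest, with a median of 8.30 RPKM over all genes. C1ql1 was at percentile 84.2 of all genes in it, against 87.9 in PFMP of batch 4. Matn4 was closer between GRP3 and PFMP, at 66.8, 82.0, 0.11 and 17.9 RPKM in GRP3 and 55.4, 93.5, 0.193 and 12.4 in PFMP. Its batch 4 value in BNAP/GRP1, 16.4 RPKM, also lay above PFMP of batch 4, though at percentile 79.4 of its library against 88.0. Brinp3, like Neu4, had its highest GRP3 value in batch 4, with 21.4, 26, 0 and 43.7 RPKM in GRP3 and 23.7, 39.5, 0.352 and 39.1 in PFMP. BNAP/GRP1 of batch 4, at 19.6 RPKM, stayed below all 6 of these libraries outside batch 3.

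Neu4, the sialidase, was the lowest member, with 5.25, 4.17, 0 and 9.98 RPKM in GRP3 and 2.80, 9.62, 0 and 8.26 in PFMP. In batch 4, GRP2/MP3 (9.12) and BNAP/GRP1 (7.82) held about as much as GRP3 and PFMP, and the value in BNAP/GRP1 was below that library's own median of 8.30. The difference of Neu4 from NSC was 1.54 ± 0.93 in GRP3 and 1.56 ± 0.93 in PFMP, the smallest of the 8. Dmrtb1, the transcription factor, had 87.1, 82.3, 0.392 and 9.48 RPKM in GRP3 and 38.7, 90.1, 0.173 and 17.7 in PFMP. BNAP/GRP1 of batch 4 (9.54) lay just above GRP3 of batch 4 for this gene, though at percentile 57.3 of its library against 82.2.

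**Figure D2:**
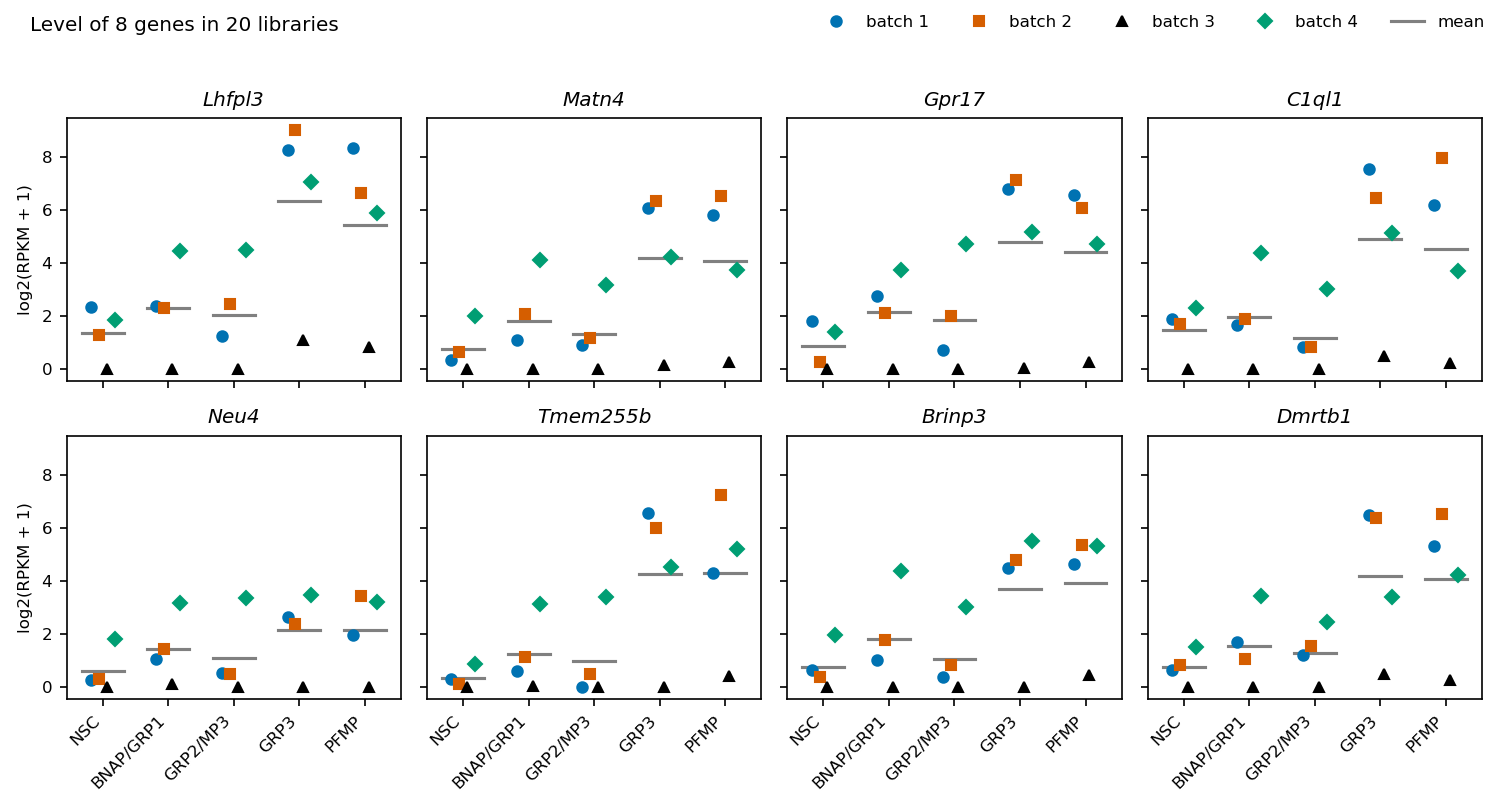
log2(RPKM + 1) of the 8 genes in the 5 populations, with a marker for each of the 4 batches and a grey line at the mean of 4 libraries. Within batch 1 and within batch 2, GRP3 and PFMP lie above the other populations for all 8 genes, batch 3 is the lowest or tied at 0 in every population, at 1.12 or less, and in batch 4 BNAP/GRP1 lies above PFMP for Matn4 and C1ql1 and GRP2/MP3 above PFMP for Neu4.

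In NSC, BNAP/GRP1 and GRP2/MP3 the 8 genes were low outside batch 4, where the highest of these 9 libraries had 5.89 RPKM of Gpr17, 4.48 of Lhfpl3, 3.27 of Matn4, 2.76 of C1ql1, 2.42 of Brinp3, 2.24 of Dmrtb1, 1.67 of Neu4 and 1.19 of Tmem255b. By mean RPKM over 4 libraries, GRP3 and PFMP held the first places for all 8 genes. GRP3 was above PFMP for Lhfpl3 (240 and 122), Matn4 (41.7 and 40.4), Gpr17 (71.9 and 46.9) and Dmrtb1 (44.8 and 36.7), and below it for C1ql1 (77.7 and 84.4), Neu4 (4.85 and 5.17), Tmem255b (44.3 and 51.2) and Brinp3 (22.8 and 25.6). Each of these gaps was smaller than the SD of either group. Without batch 3 (n = 3) the same order held, with 319 ± 192 and 163 ± 145 RPKM of Lhfpl3, 55.5 ± 33.5 and 53.8 ± 40.5 of Matn4, 95.8 ± 54.9 and 62.5 ± 34.7 of Gpr17, and 59.6 ± 43.5 and 48.8 ± 37.3 of Dmrtb1 in GRP3 and PFMP. For the others these means were 103 ± 78.2 and 112 ± 125 (C1ql1), 6.47 ± 3.09 and 6.90 ± 3.61 (Neu4), 59.0 ± 35.3 and 68.2 ± 71.8 (Tmem255b) and 30.4 ± 11.8 and 34.1 ± 9.0 (Brinp3). The gap of Lhfpl3 was then larger than the SD of PFMP. NSC had the lowest mean for 7 of the 8 genes, and for C1ql1 it (2.25 ± 1.65, SD, n = 4) and GRP2/MP3 (2.18 ± 3.33) lay within their spread.

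Batch by batch, GRP3 and PFMP both lay above NSC, BNAP/GRP1 and GRP2/MP3 for 8 of 8 genes in batch 1, where 17.6% of all genes tested did, and for 8 of 8 in batch 2 (11.4% of all genes). In batch 3 this held for 5 of 8 (6.29% of all genes). For Gpr17 it rested there on 16 reads in GRP3 against 15 in BNAP/GRP1 (0.0392 and 0.0238 RPKM), within counting error. In batch 4 it held for 4 of 8 (2.78%), namely Lhfpl3, Gpr17, Tmem255b and Brinp3. For the same 4 genes the 6 GRP3 and PFMP libraries of batches 1, 2 and 4 were all above the other 9 libraries of those batches, as for 0.351% of all genes. These contrasts include the ones that chose the genes, so nothing is read from the shares. Relative to NSC, 5 of 8 genes were higher in GRP3 in all 4 batches (8.31% of all genes) where Neu4, Tmem255b and Brinp3 were not, and 7 of 8 in PFMP (5.75%), where Neu4 was not. The median difference from NSC was 3.45 in GRP3 and 3.33 in PFMP over the 8 genes, and 0.05 and -0.20 over all genes tested. Without batch 3 the medians of the 8 genes were 4.49 and 4.36.

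The batch 3 library was the lowest of its population (tied at 0 with batch 1 for Tmem255b in GRP2/MP3) for all 8 genes in all 5 populations, which held for 33.6% of all genes. Neu4, Tmem255b and Brinp3 had no read in GRP3 of batch 3, and Neu4 had none in PFMP of batch 3. For counting error alone, no read allows up to 3 reads. In GRP3 this is 0.00876 RPKM of Neu4, 0.0387 of Tmem255b and 0.0125 of Brinp3, and in PFMP 0.00713 of Neu4. Lhfpl3 was the highest member in batch 3 of both GRP3 (1.17 RPKM) and PFMP (0.808).

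Whether the 2 gates with the highest levels agreed gene by gene was asked of GRP3 against PFMP. The libraries of both gates were used in choosing the genes. Choosing genes high in both makes a small difference likelier, so a lack of calls is no support for agreement. None of the 8 genes was called different between GRP3 and PFMP by limma's moderated test (0 of 8 called, adjusted p = 1.00 for each), as 0 of the 27614 genes were called (0%) and 84 had an unadjusted p under 0.05. The differences, GRP3 minus PFMP on the log2(RPKM + 1) scale, ran from -0.25 ± 1.21 (standard error) for Brinp3 to 0.92 ± 1.57 for Lhfpl3, with a median of 0.11 over the 8 genes and 0.23 over all genes. The 95% intervals were wide, from -2.34 to 4.18 for Lhfpl3 and from -1.95 to 1.91 for Neu4, the narrowest, so the test does not show that the gates were alike. The median also turned with single libraries, from -1.10 without PFMP of batch 3 to 1.44 without GRP3 of batch 3, and it was -0.02 under median-of-ratios scaling. Without batch 3 the differences were -0.19 to 1.14 (adjusted p = 1.00 for each), and with the batch as a replicate block the standard error of Lhfpl3 was 0.94 and that of Neu4 0.53, with adjusted p = 1.00 for each of the 8.

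**Figure D3:**
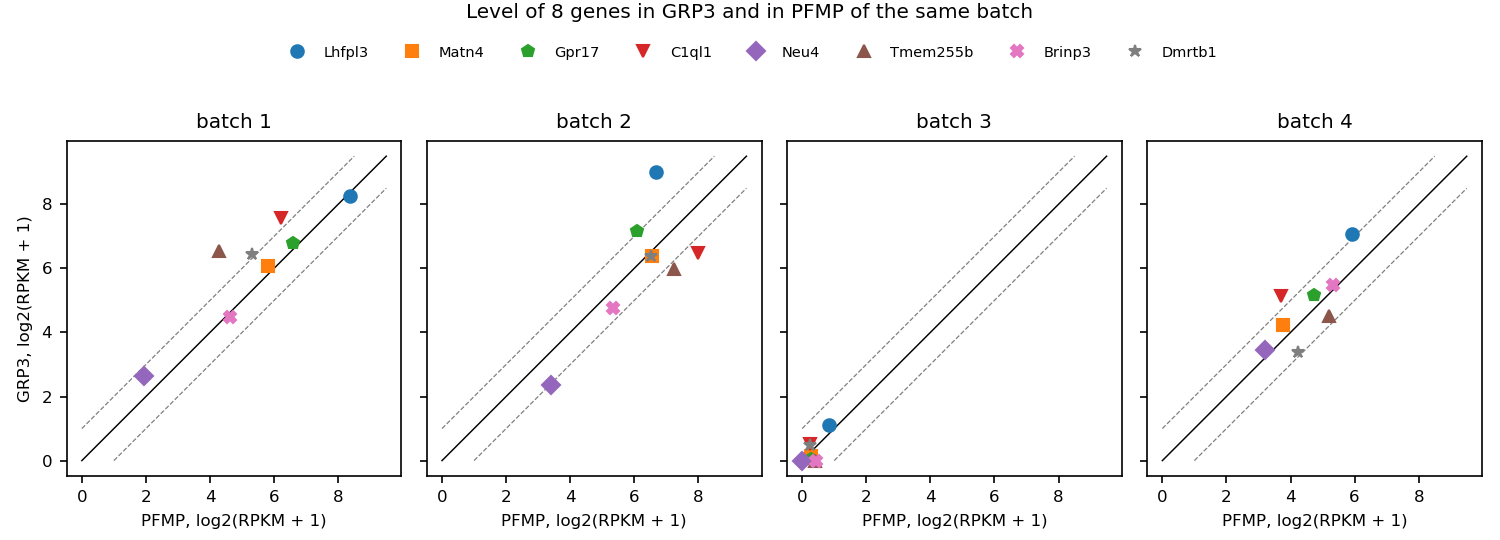
log2(RPKM + 1) of the 8 genes in GRP3 (vertical axis) and in PFMP (horizontal axis) of the same batch, a panel for each batch, with the line of equal level and dashed lines at a difference of 1. Of the 32 points 22 lie within the dashed lines, and all 8 of batch 3 are in the lower left corner.

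Within a batch the sign of the difference was not stable. None of the 8 genes was on the same side in all 4 batches, and 6.61% of all genes were. Of the 32 differences, 17 were higher in GRP3, 14 in PFMP and 1 was 0. GRP3 was higher for 6 of 8 genes in batch 1 (median 0.49), for 2 of 8 in batch 2 (median -0.38), for 3 of 8 in batch 3 (median -0.05) and for 6 of 8 in batch 4 (median 0.34).

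The largest single gaps were 2.34 for Lhfpl3 in batch 2 (517 RPKM in GRP3 and 101 in PFMP) and 2.27 for Tmem255b in batch 1 (92.4 and 18.4). Tmem255b turned the other way in batch 2, where PFMP had 150 RPKM and GRP3 62.8, a difference of -1.25. C1ql1 was likewise split, with differences of 1.37, -1.52, 0.28 and 1.44 in batches 1 to 4. Matn4 was the closest of the 8 between the gates, at 0.27, -0.19, -0.10 and 0.49, followed by Brinp3 at -0.14, -0.58, -0.43 and 0.16. Dmrtb1 moved from 1.15 in batch 1 to -0.84 in batch 4, and Neu4 from 0.72 in batch 1 to -1.04 in batch 2. Gpr17 was higher in GRP3 outside batch 3 (0.22, 1.07 and 0.43) and lower within it (-0.21).

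**Figure D4:**
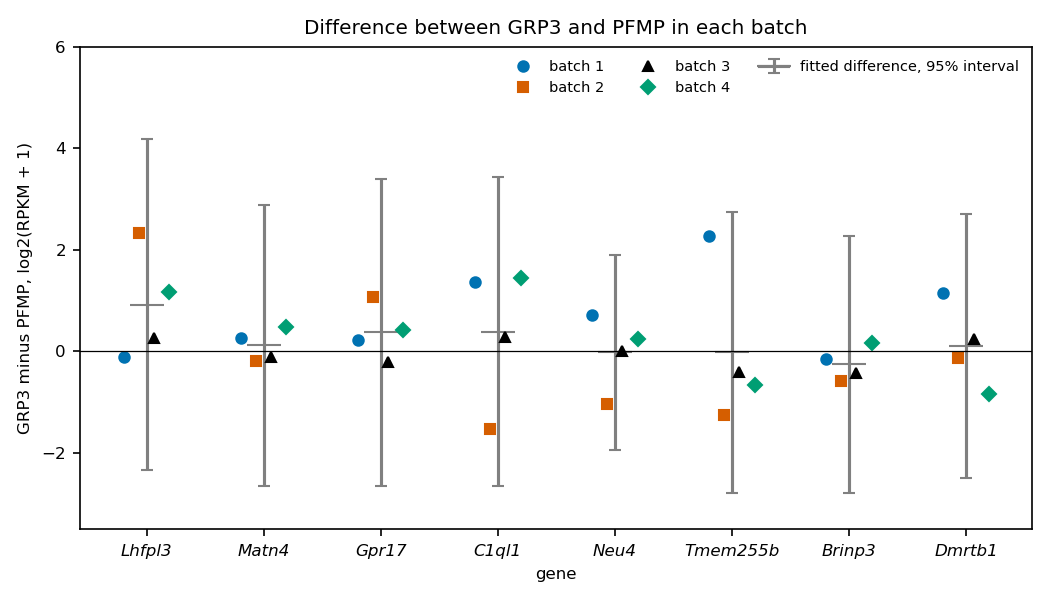
Difference between GRP3 and PFMP in log2(RPKM + 1) for the 8 genes, with a marker for each batch, a grey bar at the fitted difference of 4 batches and whiskers for its 95% interval. All 8 intervals cover 0, and markers of the same gene fall on both sides of 0.

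Pooled over the batches, the median absolute difference was 0.43 over the 32 values of the 8 genes, 0.39 over all genes tested and 0.48 over the 10832 genes whose mean RPKM over GRP3 and PFMP was at least that of the lowest member. Without batch 3 the same medians were 0.69, 0.62 and 0.71. By batch, the medians of the 8 genes and of all genes tested were 0.49 and 0.40 in batch 1, 1.06 and 0.46 in batch 2, 0.25 and 0.08 in batch 3, and 0.58 and 1.13 in batch 4. The median of the 8 genes was thus the larger in batches 1 to 3 and the smaller in batch 4, beside genes not matched for level. The order of the 8 genes by level in GRP3 and PFMP of the same batch gave, as a description over genes that are not independent, a Spearman rho of 0.81, 0.50, 0.07 and 0.71 in batches 1 to 4, so that there was next to no shared order in batch 3. Pearson r of the levels was 0.90, 0.74, 0.68 and 0.75, where all genes gave 0.90, 0.85, 0.97 and 0.79. Lhfpl3 led in both gates in batches 1, 3 and 4, and in batch 2 C1ql1 (253 RPKM) and Tmem255b (150) stood above it in PFMP. Neu4 was last in both gates in batches 1 and 2.

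BNAP/GRP1 and GRP2/MP3 carried microglial genes in batches 1 and 2 (2521 to 8405 RPKM summed over 9 genes, against 17.1 to 53.2 in the other populations) and held little of the 8 genes outside batch 4. Summed over the genes, BNAP/GRP1 had 18.4, 19.7, 0.0953 and 114 RPKM and GRP2/MP3 had 5.78, 13.0, 0.00272 and 92.0. The differences between BNAP/GRP1 and GRP2/MP3 draw on no library of the comparisons that chose the genes. Their standard errors and p-values do draw on those libraries, as the spread of each gene was estimated over all populations. None of the 8 genes was called (0 of 8 and 0% of all genes, 331 of which had an unadjusted p under 0.05), with differences from 0.24 ± 1.57 for Lhfpl3 to 0.82 ± 1.46 for C1ql1 and adjusted p = 0.966 to 0.987. Tmem255b entered this test, and those against NSC below, only through its GRP3 and PFMP libraries, so its lack of a call carries no weight. Outside them it reached 1 RPKM only in BNAP/GRP1 of batches 2 and 4 (1.19 and 7.75) and GRP2/MP3 of batch 4 (9.40). Without batch 3 they were 0.32 to 1.09 (adjusted p = 0.837 to 0.918). By sign alone 1 of 8 was on the same side in all 4 batches (5.43% of all genes), Brinp3, higher in BNAP/GRP1 by 0.63, 0.96, 0.00 and 1.37, but in batch 3 this was 1 read against 0, which shows no side. The median was 0.32 over the 8 genes and 0.43 over all genes, and under quantile normalization it was -0.11 and -0.01.

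Against NSC, whose libraries were also used in choosing the genes, BNAP/GRP1 was higher by 0.51 ± 1.46 (C1ql1) to 1.29 ± 1.45 (Gpr17). None of the 8 was called (adjusted p = 0.866 to 0.918), against 0.760% of all genes, all 210 of them lower in BNAP/GRP1. Gpr17, Neu4, Tmem255b and Brinp3, 4 of 8, were higher in all 4 batches by sign alone (9.35% of all genes). In batch 3 this rested on 1 read against 0 for Tmem255b and for Brinp3, within counting error, and on 15 and 32 reads against 0 for Gpr17 and Neu4. The median over the 8 genes was 0.91 and that over all genes 0.38, and the batch 4 pair gave the largest difference, with a median of 2.18 for the 8 genes and 1.53 for all genes. GRP2/MP3 differed from NSC by -0.31 ± 1.46 (C1ql1) to 1.00 ± 1.45 (Gpr17), with 0 of 8 called (adjusted p = 1.00, 1.12% of all genes) and 0 of 8 higher in all 4 batches (4.76%). Its batch 4 pair stood apart from the others too, with all 8 genes higher than in NSC by a median of 1.36, beside 6874 RPKM of the 6 pericyte genes in GRP2/MP3 of that batch. The 95% interval of Gpr17 ran from -1.73 to 4.32 for BNAP/GRP1 and from -2.03 to 4.02 for GRP2/MP3. With the replicate block 576 genes were called for BNAP/GRP1 and 851 for GRP2/MP3, none of the 8 among them, and none of the 8 was called without batch 3 in either comparison (adjusted p = 0.547 to 0.787 for BNAP/GRP1, 1.00 for GRP2/MP3).

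The other OPC genes were followed on a list of 21, drawn up with earlier results of these data known. Pdgfra, the gene behind CD140a, had 512, 803, 3.41 and 171 RPKM in GRP3, 658, 240, 3.84 and 96.9 in PFMP and at most 3.81 in NSC. Cspg4, the gene behind NG2, had 93.2, 80.9, 0.245 and 11.7 RPKM in GRP3 and 23.5, 146, 0.398 and 4.70 in PFMP. Both antigens served in the sort, so their levels in the gates are no finding. Olig1, Olig2 and Sox10, which the sort did not use, averaged 552, 462 and 83.5 RPKM in GRP3, 479, 236 and 94.2 in PFMP and 8.01, 4.20 and 2.23 in NSC. OPCs, which carry both antigens, express these factors too, so their levels are not independent of the sort.

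None of the 21 genes passed the threshold in either gate against NSC (limma, adjusted p under 0.05). In GRP3 1.05% of all genes did, 0.0109% higher and 1.04% lower, and in PFMP 1.14% did, 0.00362% higher and 1.14% lower. Their median difference was 2.38 in GRP3 and 2.40 in PFMP, with 11 and 12 of 21 higher in all 4 batches, and 11 and 7 of 21 at an unadjusted p under 0.05. The largest was the sort antigen's gene, Pdgfra, at 5.50 ± 1.38 in GRP3 (adjusted p = 0.0609) and 4.99 ± 1.38 in PFMP (adjusted p = 0.104). With the replicate block 7 of 21 rose in GRP3 (Pdgfra, Olig1, Olig2, Sox10, Sox8, Pcdh15 and Nxph1, with 0.275% of all genes called higher) and 5 in PFMP (Pdgfra, Olig1, Olig2, Sox10 and Nxph1, 0.185%). Without batch 3, 8 of 21 rose in GRP3 (0.315% of all genes) and 6 in PFMP (0.228%), Nkx2-2 and Nxph1 among them in both. The sort fixed the direction of Pdgfra and Cspg4, and the other OPC genes are not independent of it. Of the other 19 genes 6 rose in GRP3 and 4 in PFMP with the block, and 6 and 5 without batch 3, with median differences of 2.16 and 2.05 in the fit of all 4 batches. Between GRP3 and PFMP none of the 21 was called, with a median of 0.34.

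Genes of the next stages behaved differently from gene to gene. Of 12 premyelinating and myelin genes 11 could be tested (not Opalin), with a median difference from NSC of -0.37 in GRP3 and 0.51 in PFMP and none called. With the replicate block Bcas1, a marker of the premyelinating stage, rose by 3.23 ± 0.80 in GRP3 (adjusted p = 0.0345) and 3.41 ± 0.80 in PFMP (adjusted p = 0.0234), and Itpr2 by 2.32 ± 0.54 (adjusted p = 0.0228) and 2.07 ± 0.54 (adjusted p = 0.0463), the only 2 of the 11, and both also rose without batch 3.

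Paralogues of the 8 genes were followed as relatives, on a list drawn up with earlier results of these data known. Of 24 paralogues 23 could be tested (not Lhfpl1), with median differences from NSC of 0.04 in GRP3 and 0.05 in PFMP and none called. The lowest adjusted p was that of Neu3, a sialidase like Neu4, which was lower than in NSC by -1.51 ± 0.54 in GRP3 (adjusted p = 0.403) and by -1.76 ± 0.54 in PFMP (adjusted p = 0.194). Brinp1, the sister of Brinp3, had 129, 79.8, 0.313 and 21.2 RPKM in GRP3 and 51.2, 65.0, 0.751 and 27.8 in PFMP against at most 3.45 in NSC (3.46 ± 1.32 and 3.26 ± 1.32, adjusted p = 0.499 and 0.566). With the replicate block Brinp1 rose in both (adjusted p = 0.0322 and 0.0457), while Neu3 fell in PFMP (-1.76 ± 0.46, adjusted p = 0.0458). Against NSC, GRP2/MP3 then also had less Neu3 (-1.74 ± 0.46, adjusted p = 0.0452) and less Lhfpl4 (-2.41 ± 0.58, adjusted p = 0.0250). Without batch 3 Brinp1 again rose in GRP3 and PFMP, but no paralogue was called lower than in NSC in PFMP or GRP2/MP3. C1ql3 averaged 15.0 RPKM in GRP3 and 1.23 in NSC, and Tmem255a 31.9 and 9.18. Dmrta1, of the family of Dmrtb1, averaged 10.7 RPKM in GRP3, 4.12 in PFMP and 0.597 in NSC (2.26 ± 0.87 and 1.33 ± 0.87, adjusted p = 0.511 and 1.00). Of the most abundant paralogues of the other members, Lhfpl2 and Neu1 had their highest values in batch 3 (83.9 to 96.3 and 36.6 to 43.4 RPKM), Dmrta2 in NSC of batch 1 (28.3), Matn2 in PFMP of batch 2 (3.99), and Cysltr1, a leukotriene receptor related to Gpr17, in GRP2/MP3 of batch 2 (5.82).

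The choice of genes high in the same populations fixes a high correlation between them over these libraries. Their pairwise Pearson r of log2(RPKM + 1) was 0.80 to 0.98, and 0.68 to 0.98 over the 15 libraries without batch 3, as a description over libraries that share batches. Neu4 was the loosest member (median r = 0.85 with the other 7) and Matn4 and Dmrtb1 were among the tightest (median r = 0.96 each). The 10 genes outside the list with the highest r to the mean of the 8 genes, each as a z-score, were Lppr1 (r = 0.986), Sema5a, Lppr5, Zdhhc2, Sox10 (r = 0.981), Slc1a1, Lypd1, Frrs1l, Shc4 and Pllp (r = 0.976). Without batch 3 they gave r = 0.963 to 0.985. The closest single gene was Pcdh11x for Lhfpl3 (r = 0.990), Sorcs3 for Matn4 (0.985) and Dmrtb1 (0.975), 3110035E14Rik for Gpr17 (0.984), Grin3a for C1ql1 (0.982), Pcsk2 for Neu4 (0.975), Chga for Tmem255b (0.972) and Sema5a for Brinp3 (0.985).

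Sox10, the lineage factor among these 10, had 185, 92.2, 1.19 and 55.9 RPKM in GRP3 and 78.7, 276, 0.545 and 21 in PFMP. Like C1ql1 and Tmem255b, it was higher in GRP3 in batch 1 and higher in PFMP in batch 2. Sema5a, a semaphorin of the membrane, averaged 12.3 RPKM in GRP3, 8.01 in PFMP and 0.645 in NSC, and Pllp, a membrane protein of the myelin sheath, 37.8, 38.6 and 1.42. The mean of each of the 10 genes was higher in GRP3 and in PFMP than in the other 3 populations, which their choice by likeness to the 8 genes makes likely.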

How the data were processed

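PolyA RNA of 5 sorted populations in 4 batches was amplified, made into libraries and sequenced by the authors. Per the submitters' processing notes, FastQC 0.11.9, cutadapt 3.4, STAR 2.6.1, Salmon 1.9.0 and DESeq2 1.26.0 were used with GRCm38. The deposited table holds RPKM per gene, normalized by the authors. The read totals, gene lengths, annotation release and strand setting behind these RPKM are not given in the sources used here, so depth is known only as relative depth from the steps between low values. Per the paper's methods the authors left out 2 further experiments. The table has 26 empty columns, which were not used.

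The values were set to log2(RPKM + 1), which understates changes of low genes. A gene was kept when 4 or more of the 20 libraries reached 1 RPKM, and the 27614 genes kept were fitted with limma 3.58.1 in R 4.3.3, with a mean for each population, no batch term and a trended variance prior. The test was two-sided, p-values were adjusted by Benjamini-Hochberg over all genes tested, and the threshold was 0.05. The fit was tested on simulated data. Python 3.11.15, numpy 2.4.6, pandas 2.3.3, scipy 1.17.1 and matplotlib 3.10.9 served for the rest.

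Samples were grouped by population and batch as labelled, batch 3 included, although its lung and erythroid genes put its libraries in doubt. Nothing in the labels says that batches are separate litters, so p-values measure the spread between these libraries. The batch number pairs them as a label, and libraries of a batch deviated together (median correlation of their deviations from the population means 0.262 to 0.769, lowest 0.0341, against a median of -0.204 between different batches and populations), so a fit with the batch as a replicate block was also run. Besides the block, the fits were repeated with a pseudocount of 0.1, without the filter, with a mean RPKM of at least 5, under 2 other scalings, with an untrended prior, on the compared populations alone, without batch 3, and without each library in turn. For the OPC, myelin and paralogue lists, the block, the fit without batch 3 and the OPC list without the 2 sort antigens were added after seeing the data.

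The 8 genes and all lists were chosen with earlier results of these data known. The genes named are the 8 genes, Pdgfra, Cspg4, Olig1, Olig2 and Sox10, the most abundant paralogue of each member, list genes past a threshold, and the genes of highest correlation with the 8. Rbpjl, Lims2 and Gas6 are named because they overlap members, and Dmrta1 was named after its values were seen. A result on the myelin list is not reported here. Whole reads were taken from steps within 0.02 of a read where at least 70% of the libraries gave them, and limits at 0 cover counting error only.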

Additional observations from a re-analysis of the deposited data

Results flagged for a closer look

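Of 40 groups of 4 libraries (8 genes in 5 populations), 4 held a library past Dixon's 95% critical value for 4 samples. Its distance from the other 3 was measured as the gap over the whole range on the log2(RPKM + 1) scale, not in RPKM. Chance flags about 1 in 20 groups. In batch 4, Neu4 had 2.43 RPKM in NSC (gap over range 0.844) and 9.12 RPKM in GRP2/MP3 (0.842), and Tmem255b had 9.40 RPKM in GRP2/MP3 (0.855), each the high library of its group. In batch 3, Brinp3 had 0.352 RPKM in PFMP (0.854), the low library of its group. In the batch 4 libraries of NSC and GRP2/MP3, 82.8% and 83.5% of all genes were above 0, and the lung genes summed to 1568 RPKM in PFMP of batch 3. Their part in these values was not tested.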

How the results depend on the processing

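None of the 8 genes passed the threshold under any alternative run in GRP3 against PFMP, BNAP/GRP1 against GRP2/MP3, or either of BNAP/GRP1 and GRP2/MP3 against NSC, with lowest adjusted p of 0.998, 0.669, 0.437 and 1.00 by limma. Of 135 values of single members in each comparison 25, 19, 1 and 6 had the opposite sign. The median of the 8 genes ran from -1.10 (without PFMP of batch 3) to 1.44 (without GRP3 of batch 3) for GRP3 minus PFMP, and from -0.24 (without BNAP/GRP1 of batch 4) to 1.11 (without GRP2/MP3 of batch 4) for BNAP/GRP1 minus GRP2/MP3, where it was 0.77 with a pseudocount of 0.1 and -0.11 with quantile normalization. Scaling moved the median of all genes from 0.23 to 0.16 (median of ratios) and -0.03 (quantile) for GRP3 minus PFMP, and from 0.43 to 0.26 and -0.01 for BNAP/GRP1 minus GRP2/MP3. The median absolute gap between GRP3 and PFMP was 0.87 with a pseudocount of 0.1. With both libraries of a batch left out it was 0.34 to 0.69, the highest without batch 3.

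Genes past the threshold in BNAP/GRP1 against NSC numbered 75 with a pseudocount of 0.1, 441 with quantile normalization, 61 with the compared populations alone and 576 with the replicate block. For GRP2/MP3 against NSC they numbered 174, 114 (compared populations alone), 851 (replicate block) and 499 (without batch 3). With a library left out they ran from 88 (without NSC of batch 2) to 437 (without BNAP/GRP1 of batch 4) and from 151 (without NSC of batch 2) to 560 (without NSC of batch 3). The replicate block changed no call of the 8 genes in these comparisons. The cause was not tested. With the mean RPKM filter of 5, Neu4 was not tested. Read totals are unknown, and 4 libraries a population left 95% intervals no narrower than -1.95 to 1.91 between GRP3 and PFMP.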
